A study of Mus musculus with 12 samples.

Results

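Irgm1, Nod2 and Atg16l1 are autophagy and bacterial sensing genes whose human counterparts lie at Crohn's disease risk loci, and their RNA was measured in the terminal ileum of SPF and GF mice with and without early-life tylosin. The genes were chosen by name from Atg5, Atg7, Atg10, Atg12, Atg16l1, Irgm1, Nod1 and Nod2. Of these 8 names, 3 had values among the 556 genes measured, and the other 5 were not analysed here. The rule names genes and uses no value, but it was written with earlier results of these data known.

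All 12 animals were male C57BL/6 mice at week 7, with 3 mice in each group. SPF control mice carried a specific pathogen-free microbiota and received water without tylosin. SPF PAT mice, whose colonization the labels give as wild-type, received PAT, a single course of the macrolide antibiotic tylosin while they were nursing. GF control and GF PAT mice were bred germ-free and received water without or with the same tylosin course. RNA came from whole terminal ileum, and no label gives a litter, cage or assay batch. SPF and GF mice came from separate breeding colonies, so that colonization and colony cannot be told apart. The p-values of the main tests between groups rest on the spread between mice within a group, pooled over the 4 groups. Mice of a group may be littermates. Mice are named below by group and by the mouse number of the labels.

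Autophagy encloses cytoplasm, damaged organelles or invading bacteria in a double membrane and delivers them to the lysosome. ATG16L1 binds the ATG12-ATG5 conjugate and directs it to the growing membrane, where LC3 is attached to lipid. NOD2 is a cytosolic receptor for muramyl dipeptide, a fragment of bacterial peptidoglycan, and signals through the kinase RIPK2 to NF-kappaB and MAP kinases. It can also bring ATG16L1 to the site of bacterial entry. IRGM1 is a GTPase that interferon induces and that acts on vacuoles and membranes holding intracellular bacteria. In the ileum, ATG16L1 and NOD2 are best known for their part in Paneth cells, which secrete antimicrobial peptides at the base of the crypt.

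The 3 genes lie on different chromosomes of the mouse genome build GRCm38.p6. Atg16l1 spans chr1:87756007-87792428, Irgm1 spans chr11:48865245-48871420 and Nod2 spans chr8:88647315-88688474. The sequence before the transcription start is shown for Irgm1, whose level differed most between groups by adjusted p, and for Nod2, which was the other gene higher in SPF control than in GF control mice. The RefSeq table used here held promoters for these 2 genes. The Irgm1 stretch is the 250 bases at chr11:48871421-48871670 on the minus strand, and the Nod2 stretch is the 218 bases at chr8:88647097-88647314 on the plus strand, ended before the first annotated base of the gene. Both read 5′ to 3′, and capitals mark matches to an interferon-stimulated response element core.
Irgm1: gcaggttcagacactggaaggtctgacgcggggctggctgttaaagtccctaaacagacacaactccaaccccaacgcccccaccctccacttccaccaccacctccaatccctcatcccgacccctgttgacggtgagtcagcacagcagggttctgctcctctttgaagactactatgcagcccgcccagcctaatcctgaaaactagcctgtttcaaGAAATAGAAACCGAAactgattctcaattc
Nod2: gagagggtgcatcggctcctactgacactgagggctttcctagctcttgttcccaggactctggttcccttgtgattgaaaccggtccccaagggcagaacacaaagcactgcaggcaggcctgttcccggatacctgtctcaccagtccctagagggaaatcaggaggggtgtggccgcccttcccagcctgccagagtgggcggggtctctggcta

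A pair of motifs was searched on both strands of the stretches shown, 250 bases for Irgm1 and 218 for Nod2. These were the core of the interferon-stimulated response element, GAAANNGAA, and the gamma-activated site, TTCNNNGAA, where N is any base. The Irgm1 stretch held 2 overlapping matches to the element core, GAAATAGAA from base 30 to base 22 before the start and GAAACCGAA from base 24 to base 16. Of 32851 promoter windows of 250 bases, 7.13% held this core and 7.02% held the gamma-activated site, which neither gene had in its stretch. The Nod2 stretch, shorter than these windows, held no match to the core either, which says only that these letters are not in it.

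The assay, a NanoString nCounter panel of mouse immunology genes, counts hybridized reporter probes without sequencing, and values are log2 normalized counts. The counts behind them were recovered as whole numbers within 0.01, with totals of 600308 to 671692 in SPF PAT, 626329 to 681370 in GF control, 631071 to 674188 in GF PAT and 806043 to 923395 in SPF control mice. SPF control totals were the highest (two-sided exact permutation test against the other 9 mice, p = 0.00909), and the part of this in the results below was not tested. A probe's count also depends on the probe, so levels of different genes cannot be compared as amounts of RNA. By mean normalized count, Irgm1 ranked above 477 of the 556 genes, Atg16l1 above 418 and Nod2 above 113. In whole ileum, a lower share of the cells that express a gene and less RNA per cell cannot be told apart.

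Irgm1 was higher in each SPF control mouse than in any of the other 9 mice. Its level was 10.92, 11.11 and 11.36 in SPF control mice 2, 7 and 8, and 10.30, 10.23 and 10.17 in SPF PAT mice 21, 26 and 27. It was 10.25, 10.28 and 10.42 in GF control mice 37, 38 and 39, and 10.49, 10.16 and 10.39 in GF PAT mice 41, 42 and 43. The SPF PAT mice fell among the GF mice, and the 3 lower groups overlapped. In normalized counts, the group means were 2257 ± 353 in SPF control, 1204 ± 58.5 in SPF PAT, 1277 ± 78.7 in GF control and 1307 ± 149 in GF PAT mice (SD, n = 3). Recovered counts ran from 956 to 3166.

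Nod2, the muramyl dipeptide receptor, was near the low end of the panel. Its level was 4.70, 5.07 and 5.09 in SPF control mice 2, 7 and 8, and 4.16, 4.05 and 4.91 in SPF PAT mice 21, 26 and 27. It was 3.83, 4.27 and 3.90 in GF control mice 37, 38 and 39, and 3.71, 3.31 and 4.10 in GF PAT mice 41, 42 and 43. SPF control lay above both GF groups without overlap, whereas SPF PAT mouse 27 reached the SPF control range and the other SPF PAT mice lay among the GF control mice. Group means were 31.2 ± 4.54, 21.5 ± 7.44, 16.2 ± 2.73 and 13.4 ± 3.62 normalized counts in the groups in the same order (SD, n = 3). These values rest on few counts, from 10 in GF PAT mouse 42 (exact Poisson 95% interval 4.80 to 18.4, counting error only) to 42 in SPF control mouse 7 (30.3 to 56.8). Counting error alone gives an SD of 0.223 to 0.456 on the log2 scale, which is of the size of the spread within groups.

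Atg16l1, which encodes the membrane-targeting subunit of the LC3 lipidation complex, ran in the other direction. Its level was 9.09, 9.11 and 9.34 in SPF control mice 2, 7 and 8, and 9.37, 9.62 and 9.70 in SPF PAT mice 21, 26 and 27. It was 9.51, 9.74 and 9.74 in GF control mice 37, 38 and 39, and 9.56, 9.62 and 9.80 in GF PAT mice 41, 42 and 43. All 3 SPF control mice lay below the other 9, although SPF control mouse 8 and SPF PAT mouse 21 were close to each other. Group means were 582 ± 58.6, 760 ± 86.3, 814 ± 74.5 and 811 ± 72.7 normalized counts, again in this order (SD, n = 3). Its counts, 649 to 860, give a counting SD of 0.0492 to 0.0566, below the spread between mice.

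**Figure D1:**
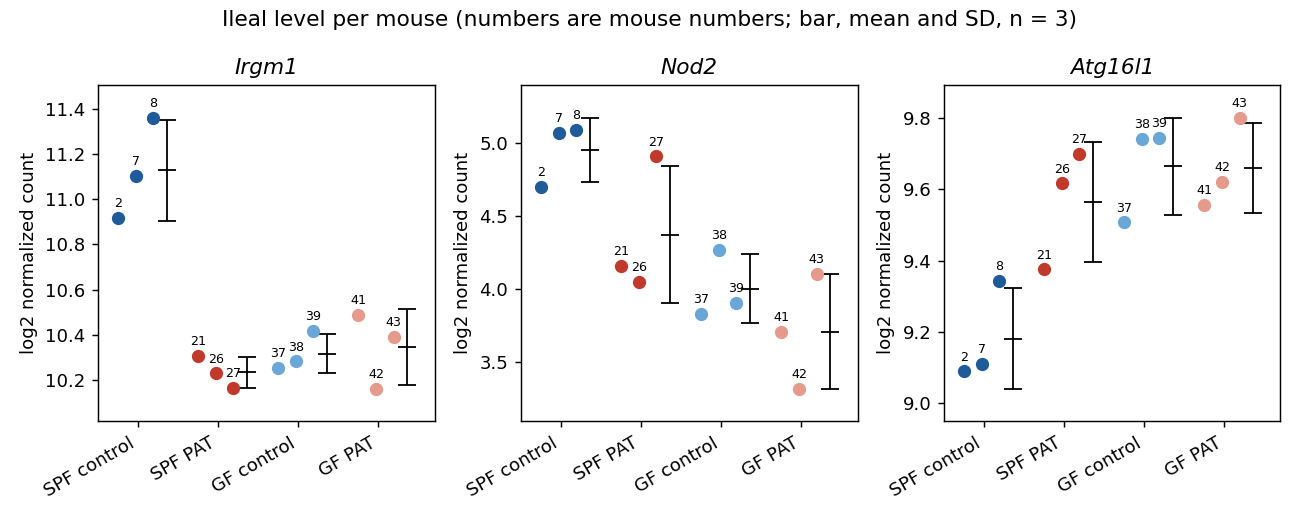
Log2 normalized count of Irgm1, Nod2 and Atg16l1 (vertical axes) in each mouse of the 4 groups (horizontal axis), with the mouse number beside each point and a bar for the mean and SD of 3 mice. The SPF control mice are the 3 highest for Irgm1 and the 3 lowest for Atg16l1, and for Nod2 SPF PAT mouse 27 at 4.91 lies between SPF control mice.

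The first comparison asked how the genes differed with colonization in mice without tylosin. Irgm1 was 1.76-fold higher in SPF control than in GF control mice (95% interval 1.42 to 2.18), a log2 difference of 0.81 ± 0.139 (SE, limma adjusted p = 0.00171, n = 3 against 3). Nod2 was 1.94-fold higher (1.28 to 2.94), with a log2 difference of 0.95 ± 0.269 (limma adjusted p = 0.0178). Atg16l1 was 1.40-fold lower (1.13 to 1.72), with a log2 difference of -0.48 ± 0.135 (limma adjusted p = 0.0172). All 3 genes therefore passed the threshold of 0.05 and none overlapped between the groups. This stands against a high background, since 42.1% of all genes passed (19.4% higher and 22.7% lower in SPF control mice) and 52.2% did not overlap. The calls of Nod2 and Atg16l1 were lost under some settings. Without GF control mouse 39 the adjusted p of Nod2 was 0.0540 and that of Atg16l1 0.0574, and without SPF control mouse 7 they were 0.0578 and 0.0590. Atg16l1 also lost its call without GF control mouse 38 (0.0619) or SPF control mouse 2 (0.0636).

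The next comparison asked how a single tylosin course was related to the genes in colonized mice. Irgm1 was 1.86-fold lower in SPF PAT than in SPF control mice (95% interval 1.5 to 2.31), a log2 difference of -0.90 ± 0.139 (SE, limma adjusted p = 0.00280, n = 3 against 3), and it ranked 17th of all genes by p. Nod2 had a log2 difference of -0.58 (95% interval -1.19 to 0.02, limma adjusted p = 0.130), and its groups overlapped through SPF PAT mouse 27. Atg16l1 had a log2 difference of 0.38 (0.08 to 0.68, limma adjusted p = 0.0607) without overlap. Only Irgm1 of the 3 genes passed, where 26.3% of all genes did (14.0% higher and 12.2% lower in SPF PAT mice). Irgm1 and Atg16l1 did not overlap between the groups, as was the case for 41% of all genes. Atg16l1 passed when the counts were scaled to each mouse's total (0.41, adjusted p = 0.00424) and with voom on the counts (0.38, adjusted p = 0.0411).

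In GF mice the same course left no detected difference in the 3 genes, whose groups all overlapped. The log2 difference of GF PAT from GF control mice was 0.03 for Irgm1 (95% interval -0.28 to 0.34, limma adjusted p = 0.948), -0.29 for Nod2 (-0.90 to 0.31, adjusted p = 0.696) and -0.0047 for Atg16l1 (-0.31 to 0.30, adjusted p = 0.994). None of the 3 genes had an unadjusted p below 0.05. By limma 0 of the 556 genes, or 0%, passed, although 28 had an unadjusted p below 0.05 and 12.1% did not overlap. Tukey HSD called 0 genes and voom 1 gene, none of them among the 3. The intervals leave room for a change of Nod2 as large as the difference measured in SPF mice, but not for the change of Irgm1 measured there.

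The difference between the PAT effects in SPF and in GF mice was tested directly. For Irgm1 it was -0.93 ± 0.197 on the log2 scale (SE, 95% interval -1.36 to -0.49, limma adjusted p = 0.0167). For Nod2 it was -0.29 (-1.14 to 0.56, adjusted p = 0.585) and for Atg16l1 0.39 (-0.04 to 0.81, adjusted p = 0.151). A difference between the PAT effects was thus called for Irgm1 alone of the 3, against 17.1% of all genes (9.89% positive and 7.19% negative). For Nod2 the sign of this value turned under median centring (0.26) and under quantile normalization (0.72). The comparisons with SPF control mice share those 3 mice, so that a level set by them enters the colonization difference, the PAT difference in SPF mice and the test between them.

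As a comparison without these mice, SPF PAT mice were set against GF PAT mice. The log2 difference was -0.11 for Irgm1 (95% interval -0.42 to 0.20, limma adjusted p = 0.856) and -0.10 for Atg16l1 (-0.40 to 0.21, adjusted p = 0.866). For Nod2 it was 0.66 (0.06 to 1.27, adjusted p = 0.423), with an unadjusted p of 0.0340 and overlap between the groups. None of the 3 genes passed, where 1.44% of all genes did (8 by limma, 8 by voom and 1 by Tukey HSD), 56 genes had an unadjusted p below 0.05 and 13.7% did not overlap. A difference of Irgm1 between SPF PAT and GF PAT mice as large as that between SPF control and GF control mice lay outside the interval.

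Over the 4 groups, all 3 genes passed limma's F-test, with adjusted p of 0.00325 for Irgm1, 0.0244 for Nod2 and 0.0482 for Atg16l1, and 33.1% of all genes passed it. Irgm1 was therefore ordered with SPF control first and the other groups, GF PAT, GF control and SPF PAT, not told apart among themselves by the tests run. For Nod2 the order was SPF control, then SPF PAT, then GF control, then GF PAT, and no tested neighbours differed past the threshold. For Atg16l1 it was GF control, GF PAT, SPF PAT and SPF control, in which the tested neighbours again did not pass and the ends did.

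**Figure D2:**
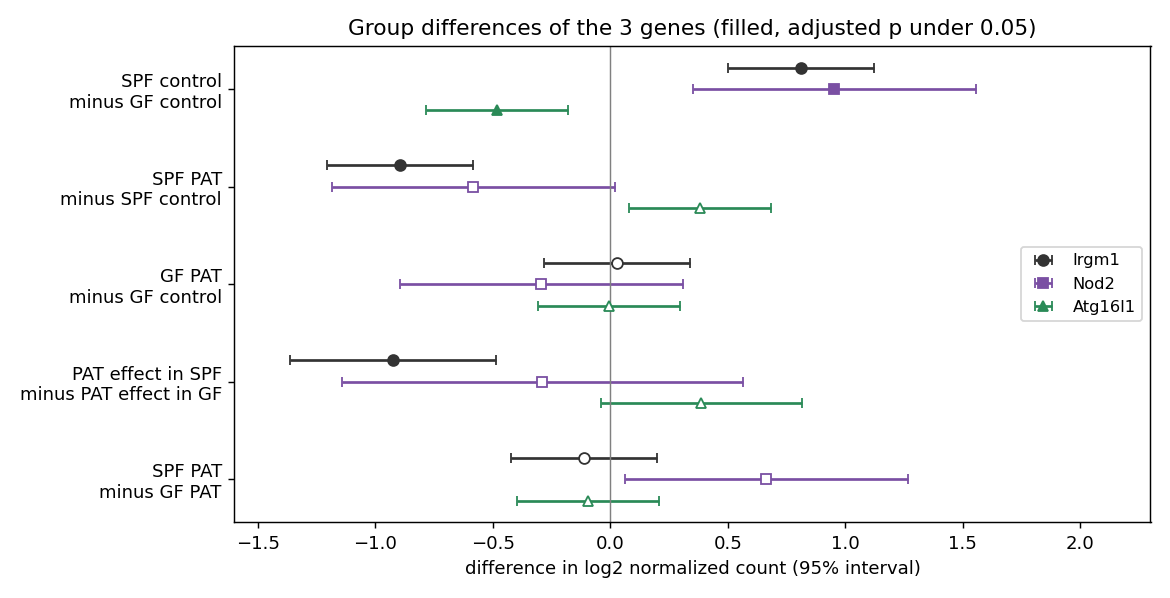
Difference in log2 normalized count (horizontal axis) of Irgm1, Nod2 and Atg16l1 for 5 comparisons of 3 mice per group (vertical axis), with 95% intervals from limma and filled markers for an adjusted p under 0.05. Irgm1 is at 0.81, -0.90 and 0.03 in the first 3 comparisons, and the GF PAT minus GF control intervals of all 3 genes include 0.

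The scaling of the mice affected the size of these values. The median over all genes was 7.25 to 7.59 on the log2 scale in SPF control mice against 6.87 to 7.37 in the other groups. These ranges overlapped, since SPF control mouse 8 at 7.25 lay below SPF PAT mouse 21 (7.35) and GF PAT mouse 41 (7.37). Setting each mouse's median to the same level moved the SPF control minus GF control difference to 0.37 for Irgm1 (adjusted p = 0.220), 0.51 for Nod2 (0.270) and -0.92 for Atg16l1. It moved the median difference of all genes from 0.08 to -0.36, a shift that centring applies alike to every gene. For SPF PAT minus SPF control, the same centring gave -0.54 for Irgm1 (adjusted p = 0.0965) and 0.74 for Atg16l1 (0.0684), with the median of all genes at 0.34. Under quantile normalization Irgm1 was at 0.96 and -1.02 in these comparisons, and Nod2 was at 0.33 (adjusted p = 0.522) and -0.01. In these comparisons directions were kept under the scalings tried, but the calls depended on them.

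**Figure D3:**
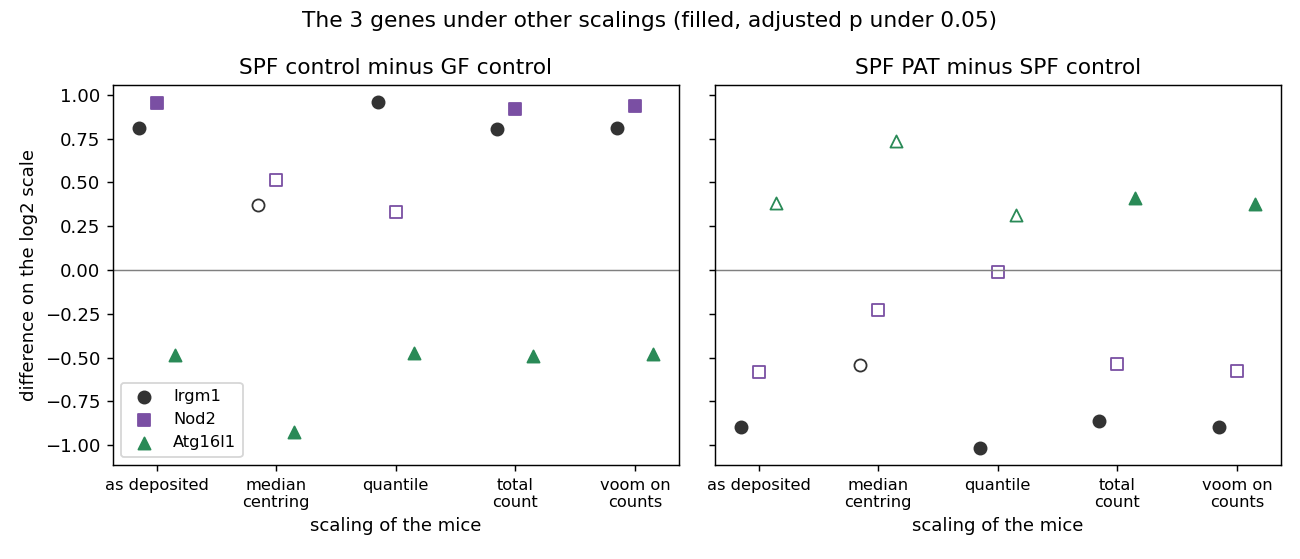
Difference on the log2 scale (vertical axis) of Irgm1, Nod2 and Atg16l1 under 5 scalings of the mice (horizontal axis), for SPF control minus GF control and for SPF PAT minus SPF control, with filled markers for an adjusted p under 0.05. Under median centring Irgm1 is at 0.37 and -0.54 with open markers, and Nod2 is at -0.01 in the second comparison under quantile normalization.

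The genes around NOD2 signalling were read from a list of 35 kinases, adaptors, NF-kappaB subunits and outputs, of which 24 were measured. RIPK2, the kinase that binds NOD2, was not analysed here. In SPF control against GF control mice 3 were higher and 12 lower, 62.5% of the list against 42.1% of all genes, and the median log2 difference was -0.41 against 0.08 over all genes. Nod2 itself, at 0.95, was thus on the side of the fewer. The higher genes were Nfkbiz (1.03, limma adjusted p = 0.000932), an atypical inhibitor of kappaB, Card9 (0.88, adjusted p = 0.0152), an adaptor that also takes part in NOD2 signalling, and the cytokine gene Il1b (0.86, adjusted p = 0.0212, 20 to 58 counts). The largest falls were in Chuk (-0.84, adjusted p = 0.00363), which encodes the kinase IKK-alpha, Tollip (-0.82, adjusted p = 0.00778), an adaptor that restrains Toll-like receptor signalling and can bind LC3, and the NF-kappaB subunit gene Relb (-0.74, adjusted p = 0.00289).

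In SPF PAT against SPF control mice the list ran in the other direction, with 9 genes higher and 1 lower and a median of 0.37 against -0.02 over all genes. These 10 genes were 41.7% of the measured list, against 26.3% of all genes. Relb (0.81, limma adjusted p = 0.00456), Tollip (0.60, adjusted p = 0.0447) and Rela (0.52, adjusted p = 0.0217), another NF-kappaB subunit gene, rose most, and Nfkbiz fell by 0.83 (adjusted p = 0.00545). The number higher rested on single mice. It was 1 without SPF PAT mouse 27 or without SPF control mouse 7, 2 without SPF control mouse 2, 5 without SPF PAT mouse 26, 10 without SPF control mouse 8 and 12 without SPF PAT mouse 21, and it was 13 with the intensity trend, total count scaling or voom. In GF PAT against GF control mice 0 of the 24 passed, with a median of -0.06 and Tollip at 0.01. The difference between the PAT effects was called for Relb (0.94, adjusted p = 0.0167) and Nfkb1 (0.55, adjusted p = 0.0322), which are 8.33% of the list against 17.1% of all genes. This count was unstable. It was 9 with the intensity trend, a minimum mean count of 20, total count scaling or voom (where 128 of all 556 genes passed), 6 with Tukey HSD, 10 without SPF PAT mouse 21, 7 without SPF control mouse 8, 4 without GF control mouse 37 or GF PAT mouse 43, and 1 without any other single mouse.

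Of 33 further genes linked to autophagy, 5 had values here, and the core conjugation genes were not analysed here. All 5 differed between SPF control and GF control mice, where 42.1% of all genes did. Bcl2, whose product binds and holds back Beclin 1, fell by 1.19 (limma adjusted p = 0.000685), and Trp53, the gene of p53, fell by 0.72 (adjusted p = 0.00281). Tbk1, which encodes a kinase that phosphorylates autophagy receptors, was at -0.60 (adjusted p = 0.00674) and moved as Atg16l1 did. Tmem173, the gene of the DNA-sensing adaptor STING, was 0.83 higher (adjusted p = 0.000932).

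In SPF PAT against SPF control mice, 3 of these 5 genes passed, against 26.3% of all genes, and 1 passed without SPF PAT mouse 27 or without SPF control mouse 7, 1 under median centring and 5 with total count scaling. Bcl2 (0.64, limma adjusted p = 0.0217) and Trp53 (0.41, adjusted p = 0.0482) rose and Tmem173 fell by 0.75 (adjusted p = 0.00428), while Tbk1 was at 0.34 (adjusted p = 0.0936). In GF mice 0 of the 5 passed, and Tbk1 was at -0.05. The PAT effects differed for Bcl2 (0.82, adjusted p = 0.0417) and Tmem173 (-0.75, adjusted p = 0.0238), against 17.1% of all genes. Neither call was stable, since 0 of the 5 genes passed without GF control mouse 38, GF PAT mouse 41, SPF control mouse 2 or SPF PAT mouse 27, and 1 without GF control mouse 39, GF PAT mouse 42 or SPF control mouse 7. Tmem173 was at -0.20 (adjusted p = 0.526) under median centring and -0.13 (adjusted p = 0.644) under quantile normalization, and Bcl2 missed the threshold with total count scaling (adjusted p = 0.0737).

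Irgm1 is an interferon-inducible gene, and 20 of 27 listed genes of the interferon-gamma pathway were measured. In SPF control against GF control mice 12 were higher and 5 lower, 85% of the list against 42.1% of all genes, with a median of 0.81. In SPF PAT against SPF control mice 11 were lower and 4 higher, 75% against 26.3%, with a median of -0.90. Irgm1, at 0.81 and -0.90, thus sat at the median of this list in both comparisons, which share the SPF control mice. Under the stricter Benjamini-Yekutieli adjustment of Tukey HSD 9 genes of the list passed in the first comparison and 1 in the second. With each mouse's median set to the same level, 8 were higher and 5 lower in the first comparison, with a list median of 0.37. In the second, 8 were then lower and 4 higher, with a list median of -0.55.

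Irf1, which encodes a transcription factor of the interferon response, was 0.54 higher in SPF control than in GF control mice (limma adjusted p = 0.00887) and fell by 0.76 with PAT in SPF mice (adjusted p = 0.00445). In GF mice its PAT difference was -0.30 (adjusted p = 0.693), without overlap between groups, as was the case for 12.1% of all genes. The largest rises in SPF control against GF control mice were in Nos2 (2.85, adjusted p = 0.000277), the inducible nitric oxide synthase gene, Cd74 (2.21, adjusted p = 0.000791), the class II invariant chain gene, and Tap1 (1.87, adjusted p = 0.000166), which encodes a peptide transporter.

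The upstream genes of the pathway ran opposite to Irgm1. The receptor gene Ifngr1 was at -1.01 (limma adjusted p = 0.000992) and Jak2, encoding its kinase, at -0.90 (adjusted p = 0.00184) in SPF control against GF control mice, as was the chemokine gene Cxcl11 at -2.03 (adjusted p = 0.000737). With PAT in SPF mice Cxcl11 (1.66, adjusted p = 0.00456), Ifngr1 (0.75, adjusted p = 0.00833) and Ifngr2 (0.69, adjusted p = 0.00752) rose, and Cd74 (-1.79, adjusted p = 0.00500), Nos2 (-1.75, adjusted p = 0.00545) and the chemokine gene Cxcl9 (-1.56, adjusted p = 0.00468) fell most. The cytokine gene Ifng, named here after its values were seen, was close to the floor of the assay at 3 to 14 counts per mouse, and its difference was 0.04 (adjusted p = 0.949) and -0.12 (adjusted p = 0.839) in these comparisons.

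The PAT effects in SPF and GF mice differed in 12 of the 20 genes, 60% against 17.1% of all genes, with 9 negative and 3 positive. The count was 7 under median centring (4 negative and 3 positive), 8 under quantile normalization (6 and 2), 8 without GF PAT mouse 41 or without SPF PAT mouse 27 (7 and 1) and 0 under Benjamini-Yekutieli adjustment. Cd274, encoding PD-L1 (-1.88, limma adjusted p = 0.00467), Cxcl10 (-1.85, adjusted p = 0.00467), a chemokine gene, and Cd74 (-2.23, adjusted p = 0.0153) were lowest, and Cxcl11 (1.99, adjusted p = 0.0153), Ifngr1 (0.99, adjusted p = 0.0187) and Ifngr2 (0.89, adjusted p = 0.0174) highest. Irgm1 was at -0.93, and Irf1 at -0.47 did not pass (adjusted p = 0.0989). In SPF PAT against GF PAT mice 0 genes of the 3 lists passed, with Irf1 at 0.07, Tbk1 at -0.21 and Tollip at -0.23.

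**Figure D4:**
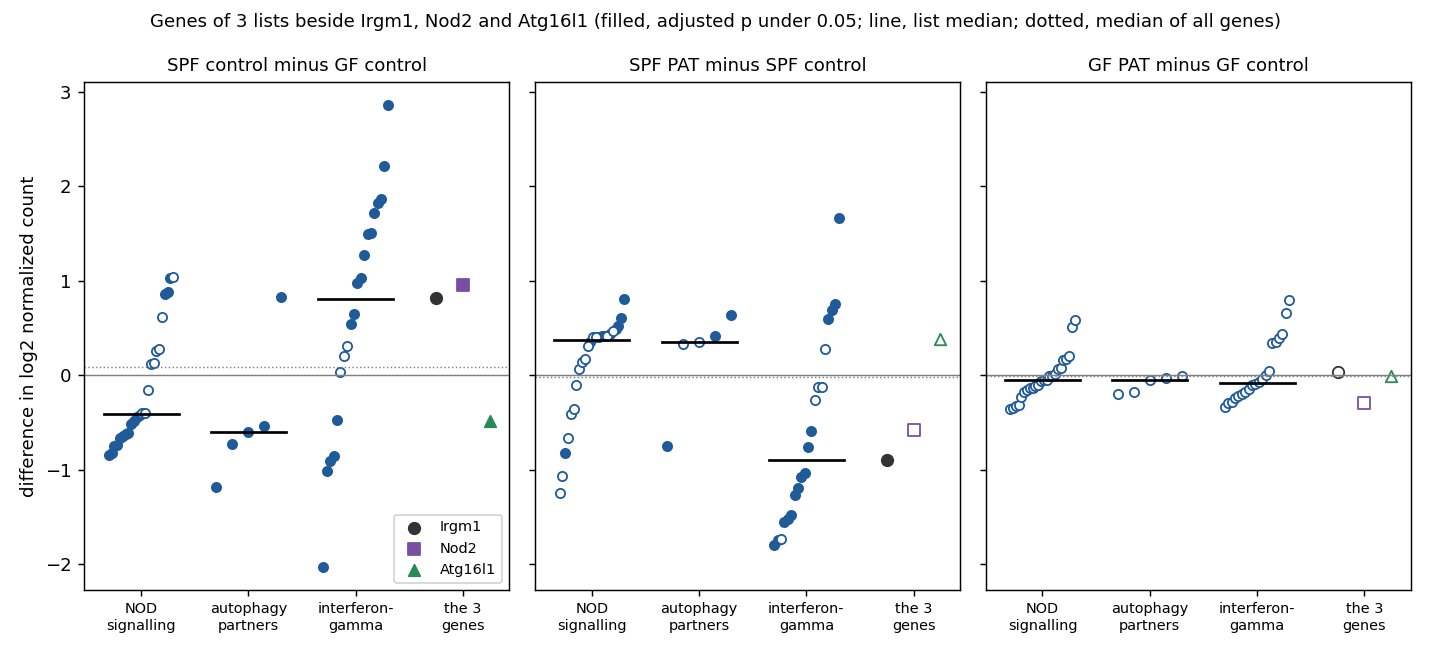
Difference in log2 normalized count (vertical axis) of each measured gene of the NOD signalling, autophagy partner and interferon-gamma lists and of Irgm1, Nod2 and Atg16l1 (horizontal axis), in 3 comparisons, with filled markers for an adjusted p under 0.05, a line at the list median and a dotted line at the median of all genes. The interferon-gamma median is 0.81 in the first panel and -0.90 in the second, and no marker is filled in GF PAT minus GF control.

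**Figure D5:**
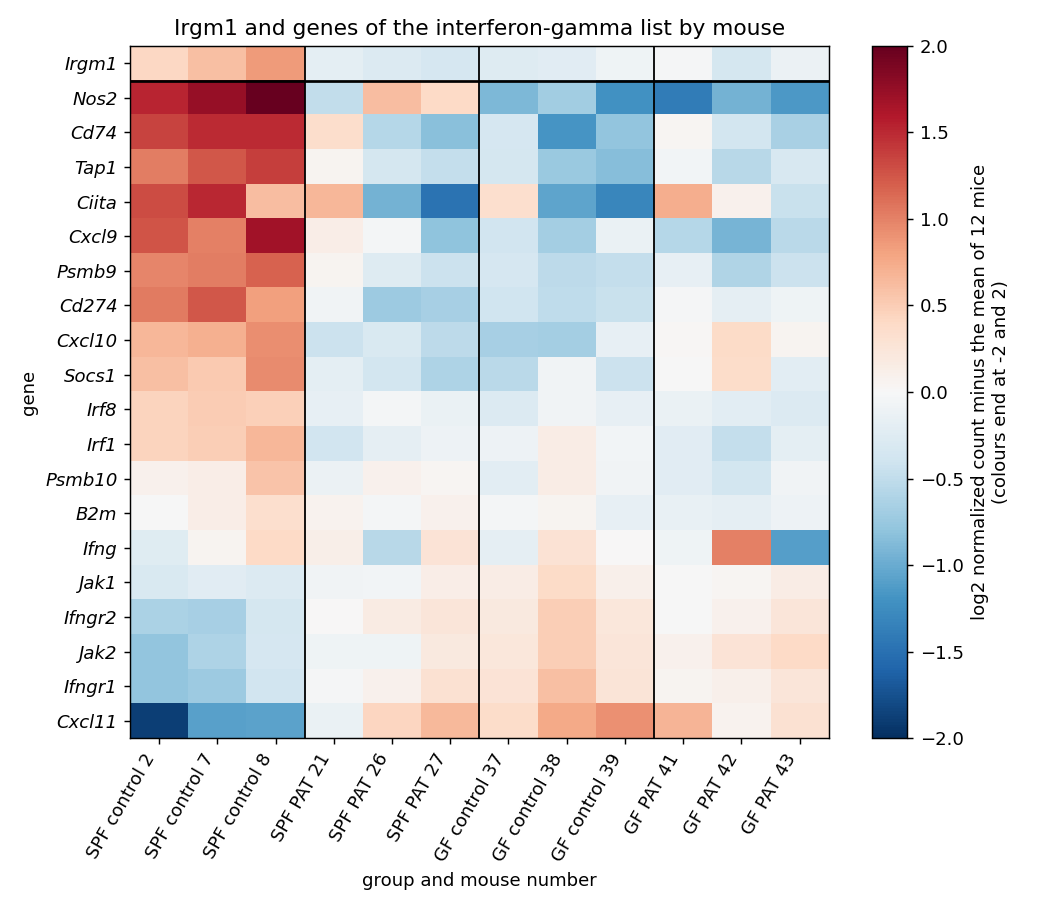
Log2 normalized count minus the mean of the 12 mice (colour, cut at -2 and 2) for Irgm1 in the top row and measured genes of the interferon-gamma list below, by mouse. Irgm1, Irf1 and Tap1 are above their means in SPF control mice 2, 7 and 8, where Ifngr1, Jak2 and Cxcl11 are below theirs.

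The genes whose values were most like those of each member over the 12 mice were read from Pearson's r, as a description in which mice of a group share their group level and their scaling. For Irgm1 they included the immunoproteasome gene Psmb9 (r = 0.940, Spearman's rho = 0.748) and the chemokine gene Ccl8 (r = 0.927, rho = 0.741), and 8 genes exceeded 0.9. Over the 9 mice outside SPF control, r was 0.309 for Psmb9 and 0.192 for Ccl8, so that the likeness to both rested on the SPF control mice.

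For Nod2 they were Tnfsf13b, the gene of the B cell survival factor BAFF (r = 0.90, rho = 0.811), the death receptor gene Fas (r = 0.890, rho = 0.902) and Nfkbiz (r = 0.866, rho = 0.839), with r of 0.809, 0.815 and 0.718 over the 9 mice. For Atg16l1 they were the atypical chemokine receptor gene Ccrl1, now Ackr4 (r = 0.973, rho = 0.965), the lymphotoxin receptor gene Ltbr (r = 0.971, rho = 0.937) and the phosphatase gene Ptpn2 (r = 0.966, rho = 0.916), with r of 0.945, 0.940 and 0.889 over the 9 mice. As many as 62 genes exceeded 0.9 with Atg16l1, against 0 with Nod2. Among the 3 genes, r was 0.695 for Irgm1 and Nod2, -0.725 for Irgm1 and Atg16l1 and -0.525 for Nod2 and Atg16l1, and over the 9 mice it was -0.208, 0.0898 and 0.228.

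Markers of some cell types, but not of all, differed between the same groups. Of 12 measured T cell and intraepithelial lymphocyte markers, 9 were higher in SPF control than in GF control mice and 8 were lower in SPF PAT than in SPF control mice, and their summed normalized count was 4617 to 4907 in SPF control, 951 to 2375 in SPF PAT, 728 to 1506 in GF control and 1117 to 1771 in GF PAT mice. This is the grouping of Irgm1. For scale, the test of SPF control minus GF control called 42.1% of all genes, 19.4% as positive and 22.7% as negative. That of SPF PAT minus SPF control called 26.3%, 14.0% as positive and 12.2% as negative. The marker counts of every cell type are to be read beside these shares. Neutrophil markers, 5 measured, summed to 78.4 to 132 in SPF control and to 25.4 to 69.7 in the other groups, with 3 higher in the first comparison and 2 lower in the second. Macrophage and dendritic cell markers, 11 measured, summed to 2776 to 3322 in SPF control, 2263 to 2787 in SPF PAT, 1958 to 2586 in GF control and 2104 to 2299 in GF PAT mice, with 2 higher and 1 lower in the first comparison and 1 lower in the second.

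Epithelial markers were called mostly in the direction of Atg16l1, and so were stromal markers. The shares called over all genes were again 42.1% without tylosin and 26.3% for PAT in SPF mice. Of 10 measured epithelial markers, 6 were lower and 1 higher in SPF control than in GF control mice and 6 were higher in SPF PAT than in SPF control mice. Their sum was 150231 to 176246 in SPF control, 161362 to 243699 in SPF PAT, 193260 to 229226 in GF control and 170924 to 201247 in GF PAT mice. The sums of SPF control mice thus overlapped those of SPF PAT and GF PAT mice, which the levels of Atg16l1 did not. B and plasma cell markers, 12 measured, overlapped among all groups, at 9115 to 11912 in SPF control, 7232 to 11417 in SPF PAT, 6353 to 9550 in GF control and 7241 to 10180 in GF PAT mice. Only 1 of them was higher in SPF control than in GF control mice, and 1 was lower in SPF PAT than in SPF control mice. The 4 measured stromal markers summed to 1268 to 1364 in SPF control and 1349 to 1671 in the other groups. Of these markers, 2 were lower in SPF control than in GF control mice and 1 was higher in SPF PAT than in SPF control mice. No marker was at 0 in every mouse, Cd8b1, Muc1, Cd209g, Cxcr2 and Ltf stayed under 20 normalized counts, and the epithelial markers Cdh1, Epcam and Vil1 were not analysed here. The part of these cell types in the levels of Irgm1, Nod2 and Atg16l1 was not tested.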

How the data were processed

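Terminal ileum RNA of 12 mice, 3 per group, was measured with the nCounter panel, so that no reads were aligned. The deposited values are log2 normalized counts, which the authors made with DESeq2 (version not given in the sources used here). The labels give extraction with TRIzol and a column cleanup, and the methods name another kit. The 28 control and reference entries held no value and were not used.

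Groups were taken from the labels. Counts were recovered with 1 size factor per mouse (0.830 to 1.25), and the mean normalized count was under 20 for 111 genes. Differences between groups came from limma 3.58.1 (functions lmFit and eBayes, R 4.3.3) on the deposited log2 values of all 12 mice, with 1 mean per group, no covariate and no filter, and with Benjamini-Hochberg adjustment over 556 genes and a threshold of 0.05. The median residual SD was 0.301. A fit to simulated data was used to check the script. Intervals of counts are exact Poisson intervals at 95%.

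Named list genes are up to 3 risen and 3 fallen with the largest difference past the threshold in each comparison, together with Tbk1, Tollip and Irf1. Values of 1 further gene are not reported here. The genes studied and the lists were chosen with earlier results of these data known. Alternatives were 11 other settings (the methods' analysis of variance with Tukey HSD under 2 adjustments, intensity trend, robust variance, a fit on only the compared groups, genes with a mean count of at least 20, 3 scalings, voom and a pseudocount of 1) and fits without 1 of the 12 mice.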

Additional observations from a re-analysis of the deposited data

Results flagged for a closer look

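For Irgm1 the PAT effect in SPF mice minus that in GF mice was -0.93 on the log2 scale, with -0.90 in SPF and 0.03 in GF mice (limma adjusted p = 0.0167). Among the NOD signalling genes the difference between the PAT effects was 0.94 for Relb and 0.55 for Nfkb1, and among the autophagy partners it was 0.82 for Bcl2 and -0.75 for Tmem173. In the interferon-gamma list it was 1.99 for Cxcl11, 0.99 for Ifngr1, 0.89 for Ifngr2, -2.23 for Cd74, -1.88 for Cd274 and -1.85 for Cxcl10. In GF mice alone the effects of these genes ran from -0.33 (Cxcl11) to 0.66 (Cxcl10), and no gene of the panel passed there by limma, although 28 had an unadjusted p below 0.05 and voom called 1 gene. Each of these values was picked out because the test of the difference itself passed the threshold.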

How the results depend on the processing

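Each of the 3 genes kept its direction in SPF control against GF control and in SPF PAT against SPF control mice under every alternative run. The number of the 3 genes past the threshold in SPF control against GF control mice, 3 as reported, was 1 with Tukey HSD under Benjamini-Hochberg adjustment (Irgm1), 0 under Benjamini-Yekutieli, 1 under median centring (Atg16l1) and 1 to 3 without single mice. In SPF PAT against SPF control mice it was 1 as reported, 0 with Benjamini-Yekutieli and under median centring, and 2 with the intensity trend, with a minimum mean count of 20, with total count scaling and with voom, each of which added Atg16l1. Without single mice it was 1 to 2, with Atg16l1 passing without SPF control mouse 8 or SPF PAT mouse 21. The difference between the PAT effects, called for 1 gene, was called for 0 with Benjamini-Yekutieli and under median centring, where Irgm1 was at -0.38. The F-test count of 3 was 1 with Benjamini-Yekutieli, 0 under median centring, 1 with quantile normalization and 1 to 3 without single mice, at 1 without SPF control mouse 2 or 7 or GF PAT mouse 41 or 42. Without each mouse in turn Irgm1 passed in all 12 fits in SPF control against GF control mice (0.69 to 0.92), in SPF PAT against SPF control mice (-1.0 to -0.78) and in the difference between the PAT effects (-1.03 to -0.81). The fit on only the groups compared could not be made for the difference between the PAT effects or the F-test. No paired analysis was possible because the labels give the groups no shared replicate numbers. For Nod2, counts of 10 to 42 limit what could be detected. Of the list genes named for SPF control against GF control mice, Nfkbiz, Card9, Il1b, Tmem173 and Irf1 did not pass under median centring, with the same sign. For SPF PAT against SPF control mice these were Tollip, Nfkbiz, Trp53, Tmem173 and Irf1, and for the difference between the PAT effects Tmem173. Under quantile normalization the calls lost were Card9 (adjusted p = 0.142), Il1b (0.18 in place of 0.86, adjusted p = 0.706) and Tmem173 (adjusted p = 0.0862) in the first comparison, Tmem173 (adjusted p = 0.0780) and Cd74 (adjusted p = 0.112) in the second, and Nfkb1, Tmem173, Ifngr2, Cd74 and Cxcl10 in the difference between the PAT effects, where total count scaling lost Bcl2. Of the NOD signalling genes, 10 passed in SPF PAT against SPF control mice as reported, 5 with Tukey HSD under Benjamini-Hochberg, 0 under Benjamini-Yekutieli and 2 with only the groups compared. The cause of these changes was not tested.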
